A study of Mus musculus with 12 samples.

Results

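The 8 genes described here encode the subunits of CCT, the cytosolic chaperonin of eukaryotes, also called TRiC. They were taken by symbol from the study's 2 tables of gene expression, where all 8 (Tcp1, Cct2, Cct3, Cct4, Cct5, Cct6a, Cct7 and Cct8) were found among 23235 gene entries for fetal liver and among 24421 for cultured fibroblasts, 25952 different entries in all. The study concerns a knock-in allele of Rpt2, the proteasome ATPase encoded by Psmc1, in which the glycine that carries a myristoyl lipid anchor is replaced by alanine (G2A). RNA was sequenced from livers of wild-type (WT) and homozygous Rpt2 G2A/G2A mouse embryos at E12.5, described as 3 littermate pairs, and from immortalized mouse embryonic fibroblasts (MEFs) of the same genotypes. No sample was treated. The labels name 12 samples in 4 groups of 3, and 11 libraries were used: 3 WT and 3 G2A livers, and 3 WT and 2 G2A MEF samples. The labels do not say whether the MEF samples came from separate lines or cultures, so p-values for MEFs measure only the spread between these samples, which may be technical.

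CCT is built of a pair of stacked rings, each made of one copy of every subunit. Newly made actin, tubulin and many proteins with WD40 repeats fold inside its chamber as the subunits bind and hydrolyse ATP. The cochaperone prefoldin hands over actin and tubulin chains, and phosducin-like proteins assist with other clients. Since each ring needs all the subunits, their mRNAs are commonly produced together, and rapidly growing cells such as those of the fetal liver, a site of red cell production at this stage, contain much of the complex.

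The genes are not clustered in the genome. In the mm9 build, Tcp1 (the alpha subunit) lies at chr17:13108567-13117933 on the plus strand, Cct2 (beta) at chr10:116488054-116500870 on the minus strand, Cct3 (gamma) at chr3:88101038-88125689 on the plus strand and Cct4 (delta) at chr11:22890519-22903780 on the plus strand. Cct5 (epsilon) lies at chr15:31520555-31531602 on the minus strand, Cct6a (zeta) at chr5:130293315-130321696 on the plus strand, Cct7 (eta) at chr6:85401499-85418471 on the plus strand and Cct8 (theta) at chr16:87483570-87496114 on the minus strand. Promoter windows from RefSeq (GRCm38.p6), from 250 bases before to 50 bases after a start, were held for 7 of the 8 genes, all but Cct4, and numbered 9 because Cct2 and Cct5 each had a pair of starts. Stretches just upstream of a start that hold no annotated exon are shown for 4 subunits. They are shown because all 8 mRNAs lay on the same side of WT in the livers, and promoters can be compared by them. They run 5′ to 3′ along each gene and end at the base before the RefSeq start. Capitals mark CCAAT boxes (CCAAT, or ATTGG on the other strand), GC boxes (GGGCGG or CCGCCC) and ETS sites (CCGGAAG or CTTCCGG), none of which share a base with one another in these windows.
Cct6a, chr5:130293130-130293231 in mm9, plus strand: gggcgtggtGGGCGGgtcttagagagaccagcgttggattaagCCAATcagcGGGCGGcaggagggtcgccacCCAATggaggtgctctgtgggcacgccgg
Cct7, chr6:85401349-85401498 in mm9, plus strand: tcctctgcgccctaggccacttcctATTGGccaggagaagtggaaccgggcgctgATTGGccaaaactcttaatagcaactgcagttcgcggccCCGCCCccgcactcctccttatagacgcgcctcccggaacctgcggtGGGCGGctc
Cct2, chr10:116500909-116501058 in mm9, minus strand, first of its starts: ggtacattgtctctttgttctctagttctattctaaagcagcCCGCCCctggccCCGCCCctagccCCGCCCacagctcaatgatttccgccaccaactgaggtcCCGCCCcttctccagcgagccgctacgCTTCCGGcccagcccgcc
Cct8, chr16:87496115-87496264 in mm9, minus strand: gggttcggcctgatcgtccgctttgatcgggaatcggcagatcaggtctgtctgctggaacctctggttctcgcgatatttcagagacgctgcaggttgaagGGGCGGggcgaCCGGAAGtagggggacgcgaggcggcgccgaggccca
The Cct6a stretch is the 102 bases between its RefSeq start and the first exon of the divergent gene Psph, and it holds CCAAT and GC boxes. The Cct7 stretch holds CCAAT and GC boxes too, whereas those of Cct2 and Cct8 hold GC boxes and an ETS site and no CCAAT box. Not shown are a stretch of 61 bases before the second start of Cct5, which holds none of these sites, and one of 150 bases before the second start of Cct2. The latter holds a GC box and a heat shock element, GAAGTTTC.

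Over the whole windows and both strands, the GC box was found in 8 of the 9 subunit windows, which covered all 7 genes, against 35.7% of the 32851 windows in the RefSeq table. The CCAAT box was found in 4 of 9 (Tcp1, Cct3, Cct6a and Cct7), against 37.4% of all windows. The ETS site was found in 3 of 9 (Tcp1, Cct8 and one window of Cct2), against 8.86%. A heat shock element, the site of the heat shock factors (GAANNTTC or TTCNNGAA, each its own reverse complement), was found in 3 of 9 (Cct6a and one window each of Cct2 and Cct5), against 15.1%. The erythroid GATA site (AGATAA) was found in 0 of the 9, against 11.2%. These matches describe letters in the windows, not bound sites.

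In fetal liver, all 8 subunit mRNAs were lower in each G2A liver than in any WT liver, by 9.24% to 14.8% of the WT mean. None of the differences passed the test across all genes. Cct5, Cct7 and Cct6a stood furthest from WT, and Cct4 and Tcp1 nearest. RNA of a whole organ was measured, in which fewer cells of a type and less RNA per cell cannot be told apart. Values are FPKM, fragments per kilobase of transcript scaled to the mapped total, and differences are G2A minus WT on log2(FPKM + 1).

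Cct5 measured 313, 317 and 305 FPKM in the livers of WT embryos, against 272, 253 and 273 FPKM in those of G2A embryos. The lowest WT liver stood well above the highest G2A liver, and G2A 2 was the lowest. The means were 312 ± 6.51 and 266 ± 11.2 FPKM (SD, n = 3 each), a log2 difference of -0.23 with a 95% interval from -0.36 to -0.10 and an adjusted p of 0.114 (limma, Benjamini-Hochberg over 12938 genes). Cct5 is one of the subunits with strong ATP binding, and its mutation causes an inherited sensory neuropathy in people.

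Cct7 measured 186, 206 and 199 FPKM in WT, against 164, 161 and 180.4 in G2A. The G2A 3 liver came near the lowest WT liver without reaching it. The log2 difference was -0.22 ± 0.068 (SE), with an adjusted p of 0.151 by limma. Cct6a, whose product belongs to the side of the ring that binds ATP weakly, measured 294, 304 and 290.3 FPKM in WT, against 253, 241 and 278 in G2A. Again G2A 3 was the highest of its group and stayed below all WT livers. The log2 difference was -0.21 ± 0.066 (SE), with an adjusted p of 0.162 by limma.

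Cct3 measured 229, 251 and 236 FPKM in WT, against 209.9, 202 and 218 in G2A, a log2 difference of -0.18 (adjusted p 0.157, limma). Cct8 measured 201, 212 and 203 FPKM in WT, against 180.4, 169.9 and 194 in G2A, a log2 difference of -0.18 (adjusted p 0.190, limma). In both genes the groups were apart, with WT 2 at the top and G2A 2 at the bottom. Cct2 measured 309, 341 and 323 FPKM in WT, against 289, 277 and 300.5 in G2A, a log2 difference of -0.17 (adjusted p 0.192, limma).

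Tcp1, the founding member of the family, measured 299.9, 319 and 302 FPKM in WT, against 273, 258 and 296 in G2A. Here G2A 3 nearly met the lowest WT liver, and the log2 difference was -0.15 with a 95% interval from -0.32 to 0.01 (adjusted p 0.247, limma). Cct4 measured 218, 245 and 232 FPKM in WT, against 212, 201 and 217 in G2A. Its groups were parted by a narrow gap, and the log2 difference was -0.14 with a 95% interval from -0.29 to 0.01 (adjusted p 0.266, limma).

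**Figure D1:**
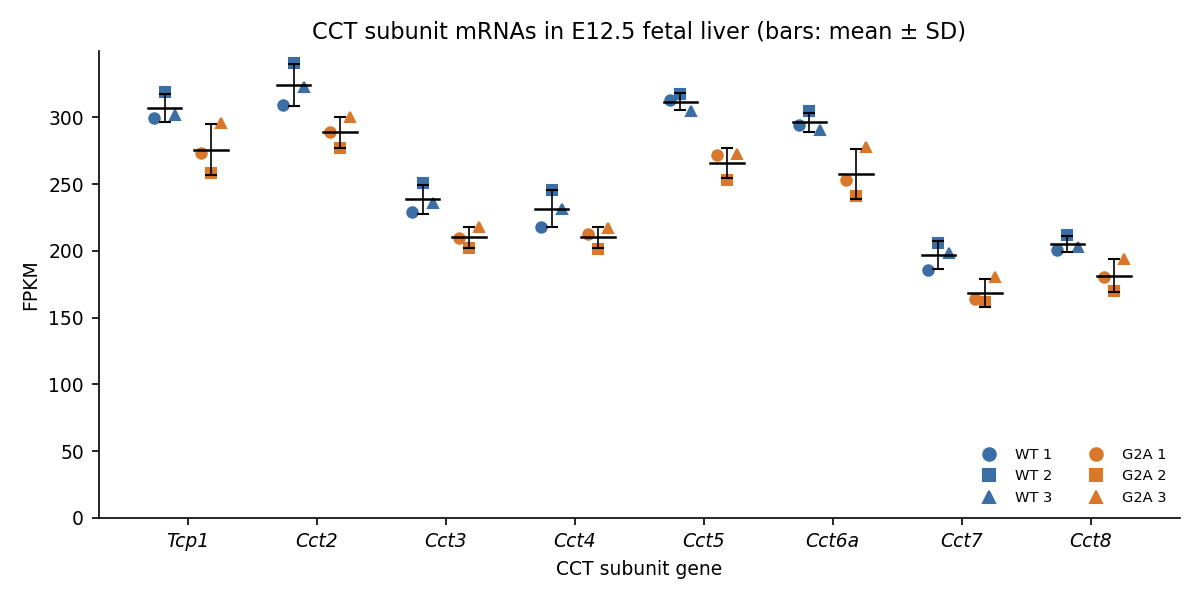
FPKM of each CCT subunit mRNA in the 3 WT (blue) and 3 G2A (orange) fetal livers, with marker shape for the sample number and black bars for the mean ± SD. In every gene the 3 G2A points lie below the 3 WT points, with WT 2 highest and G2A 2 lowest.

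By limma, 0 of the 8 subunits passed an adjusted p of 0.05, as did 0.00773% of all genes in that direction and 0.0155% in the other. At an unadjusted p of 0.05, 6 of 8 were lower in G2A (all but Tcp1 and Cct4) and 0 higher, against 12.4% and 9.07% of all genes tested. All 8 had groups that did not overlap with G2A lower, against 15.7% of genes with G2A lower and 11.8% with G2A higher. By sign alone, 8 of 8 were below 0, as were 47.3% of genes, and 52.7% were above. Their median log2 difference was -0.18, beside 0.01 over all 12938 genes, whose 5th and 95th percentiles were -0.36 and 0.48.

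The 8 mRNAs kept together from liver to liver. WT 2 was the highest of all 6 livers and G2A 2 the lowest for 8 of 8 subunits, and G2A 3 was the highest G2A liver for 8 of 8. The share of all genes with these ranks was not counted. Some genes outside the family, named further below, followed the same course as closely, so it is not particular to the subunits. Averaged over the subunits, the WT livers lay at -0.05, 0.06 and -0.01 from the WT mean on the log2 scale, and the G2A livers at -0.19, -0.26 and -0.11. Within any one liver the 8 deviations spanned no more than 0.143, and the narrowest span was 0.0481. Summed over the 8, FPKM came to 2049.6, 2196 and 2089 in WT and to 1854, 1764 and 1956 in G2A.

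The number of subunits called depended on the G2A 3 liver. Without it, limma called 6 of 8 lower (all but Cct2 and Cct4), beside 12% of all genes lower and 12.4% higher, and the median difference became -0.22. With library weights estimated from the data, which gave that liver a weight of 0.176 and G2A 1 a weight of 6.22, so that the G2A group rested mainly on G2A 1, all 8 were called, with adjusted p from 0.00528 to 0.0465, beside 20.7% of all genes lower and 26.1% higher. With quantile normalization the median was -0.063, all 8 were still below 0, and 0 of 8 had an unadjusted p under 0.05.

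In the MEFs, all 8 subunit mRNAs had a higher mean in G2A than in WT, by 12.1% to 30.3%, and none passed the test. The WT samples differed widely among themselves, with WT 3 the lowest library for every subunit. Values for MEFs are reads per gene divided by a size factor, not by length, so they are compared within a gene only, and differences are on log2(value + 1).

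Cct4, at the delta position of the ring, was at 7542, 9579 and 7207 normalized reads in WT and at 9883 and 11247 in G2A. Both G2A samples lay above the 3 WT samples, WT 2 being closest. The log2 difference was 0.39 with a 95% interval from -0.02 to 0.80 and an adjusted p of 0.362 (limma, over 13241 genes), the smallest of the 8. Tcp1 was at 18658, 23525 and 14149 normalized reads in WT and at 24357 and 24471 in G2A, a log2 difference of 0.41 ± 0.23 (SE; adjusted p 0.457, limma). The G2A samples nearly coincided, and the WT samples spread over a far wider range below them.

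Cct3 was at 15955, 20681 and 14209 normalized reads in WT and at 21327 and 22158 in G2A, a log2 difference of 0.38 (adjusted p 0.420, limma). Cct6a was at 17365, 21769 and 16800 in WT and at 22494 and 24130 in G2A, a log2 difference of 0.33 (adjusted p 0.410, limma). In both genes WT 2 came close to the G2A samples without passing them. Cct5 was at 15211, 20046 and 12294 in WT and at 19309 and 20981 in G2A, a log2 difference of 0.37 (adjusted p 0.481, limma), and here WT 2 lay between the G2A samples.

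Cct7 was at 12925, 16076 and 10783 normalized reads in WT and at 15476 and 16888 in G2A, a log2 difference of 0.31 (adjusted p 0.497, limma). Cct8 was at 16617, 19499 and 13165 in WT and at 17769 and 19779 in G2A, a log2 difference of 0.21 (adjusted p 0.638, limma). WT 2 again fell between the G2A samples in both. Cct2 was at 26810, 34027 and 19019 in WT and at 29968 and 29686 in G2A, so that WT 2 exceeded both G2A samples, and the log2 difference was 0.20 with a 95% interval from -0.47 to 0.87 (adjusted p 0.737, limma).

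**Figure D2:**
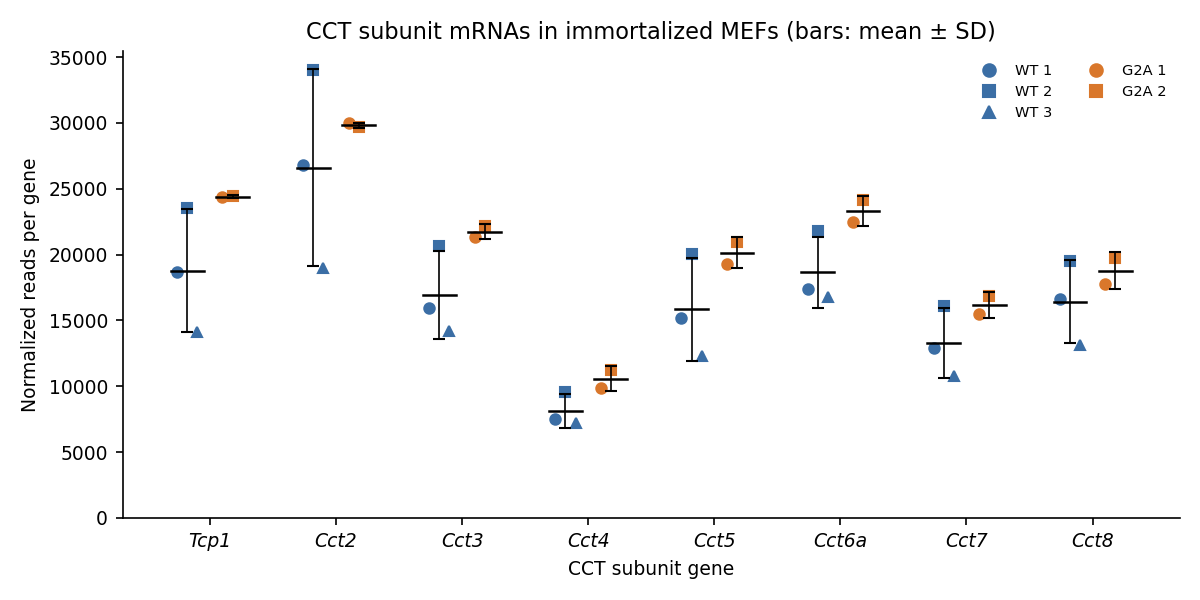
Normalized reads of each CCT subunit mRNA in the 3 WT (blue) and 2 G2A (orange) MEF samples, with marker shape for the sample number and black bars for the mean ± SD. The WT samples spread widely, WT 3 is lowest in every gene, and the G2A samples lie above all WT samples for Tcp1, Cct3, Cct4 and Cct6a.

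By limma, 0 of 8 subunits and 0% of all genes passed an adjusted p of 0.05 in MEFs, and 0 of 8 had an unadjusted p under 0.05, against 6.9% of genes higher and 7.48% lower. On the reads recovered from the table, edgeR called 0 of 8 (0 at an unadjusted p under 0.05), beside 0% of 13318 genes in either direction. DESeq2 called 0 of 8 (1 at an unadjusted p under 0.05), beside 2.92% of genes higher and 4.8% lower. For 4 of 8 the groups stood apart without overlap (Tcp1, Cct3, Cct4 and Cct6a), with G2A higher, against 18.9% of genes, and for 0 of 8 with G2A lower, against 18%. By sign alone, 8 of 8 were above 0, as were 51.6% of genes, and 48.4% were below. The median log2 difference of the 8 was 0.35, beside 0.01 for all genes. Averaged over the subunits, the WT samples lay at -0.02, 0.31 and -0.28 from the WT mean on the log2 scale, and the G2A samples at 0.28 and 0.37.

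The size of the MEF difference depended on the WT 3 sample. Without it the median of the 8 was 0.21 and Cct2 was at -0.018 (adjusted p 0.937, limma). Tcp1 was then at 0.22, Cct5 at 0.20, Cct7 at 0.17 and Cct8 at 0.059. By limma 0 of 8 were called (0 at an unadjusted p under 0.05), while 11.7% of all genes were called higher. Without WT 2 the 8 ran from 0.34 (Cct8) to 0.59 (Tcp1), and 0 were called. With estimated library weights, which gave WT 3 a weight of 0.12, limma called 6 of 8 higher (all but Cct2 and Cct8), beside 23.8% of all genes.

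In these MEFs the 8 dividing cell markers (mitosis and replication genes) had summed levels of 53815 to 85510 normalized reads in WT and 71433 to 77880 in G2A. WT 3 was lowest, as it was for the CCT subunits, and it also had the lowest total over all genes. It was lowest too for the summed actins (252919), tubulins (151201) and WD40 and other clients (51346), but not for prefoldin, where WT 1 was lowest (11392). A low WT 3 was thus not particular to dividing cell genes. Of the 8 dividing cell markers 7 were above WT (median 0.09), with 0 past an adjusted p of 0.05 and 0 at an unadjusted p of 0.05 by limma. At the latter, 6.9% of all genes were higher and 7.48% lower. The 8 mesenchymal and fibroblast markers, none of them at 0, summed to 530945 to 965150 normalized reads in WT and 367290 to 388168 in G2A. The part of either list in the CCT values was not tested.

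The sign of the difference was opposite in the liver and the MEFs for 8 of 8 subunits, as it was, liver below 0 and MEFs above 0, for 30.2% of the 10818 genes tested in both. The difference between the effects, liver minus MEFs, ran from -0.60 for Cct5 to -0.37 for Cct2 on the log2 scale, with a median of -0.53 beside -0.02 for all genes. It was below 0 for 8 of 8, as for 51.2% of genes, and above 0 for 48.8%. By limma fits of both tables, 0 of 8 passed an adjusted p of 0.05 (0.130 to 0.453), against 0.869% of genes below and 1.34% above. At an unadjusted p of 0.05, 5 of 8 were below (Cct3, Cct4, Cct5, Cct6a and Cct7), against 12.1% of genes below and 11.5% above. Without WT 3 of the MEFs the median of the 8 was -0.41, Cct2 was at -0.15 and Cct8 at -0.24. In that setting 1 of 8 passed (Cct6a, -0.47, adjusted p 0.0478, limma), beside 3260 of all 10818 genes. Without WT 2 of the MEFs Cct2 was at -0.57, and 0 of 8 passed, beside 496 genes.

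**Figure D3:**
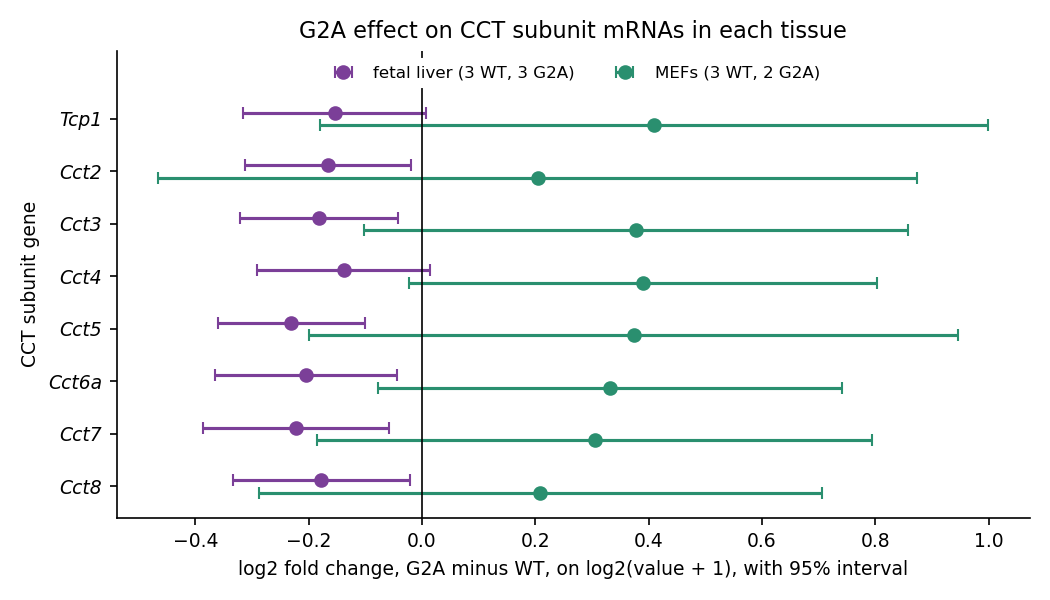
Log2 difference between G2A and WT for each CCT subunit, with its 95% interval, in fetal liver (purple) and MEFs (green). All liver points lie below 0 and all MEF points above 0, and the MEF intervals are the wider and all cross 0.

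The subunits were not equally abundant at the mRNA level. Per length, Cct2 had the highest FPKM in WT liver, 15.4% of the summed FPKM of the 8, followed by Cct5 (14.8%), Tcp1 (14.5%), Cct6a (14.0%), Cct3 (11.3%), Cct4 (10.97%), Cct8 (9.72%) and Cct7 (9.32%). The WT ranges of neighbours in this order overlapped except between Cct6a and Cct3 and between Cct4 and Cct8, which leaves an upper, a middle and a lower set. The highest WT mean FPKM was 1.65 times the lowest. In the MEFs, reads per kilobase of the longest coding transcript placed Cct2 first with 20.5% of the sum and Cct4 last with 5.04%, a ratio of 4.16. Between them came Cct6a (18.04%), Cct3 (13.2%), Cct5 (12.7%), Tcp1 (11.7%), Cct8 (10.5%) and Cct7 (8.29%), and the WT ranges of neighbours overlapped except between Cct7 and Cct4 and, by a gap of 10506 against 10461 reads per kilobase, between Cct6a and Cct3. The annotated transcript of Cct6a, 1599 bases, holds coding sequence only, so its reads per kilobase are overstated beside those of the others and its place apart from Cct3 is uncertain.

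These shares changed little with genotype. In liver the G2A share of each subunit was within -0.47 (Cct5) to 0.36 (Cct4) percentage points of the WT share, and only Tcp1 had groups apart, at 14.4% to 14.6% in WT and 14.6% to 15.1% in G2A. In MEFs the differences ran from -1.55 (Cct2) to 0.79 (Tcp1) percentage points. The Tcp1 share was higher in both G2A samples than in any WT sample, and the Cct8 share lower (10.2% to 10.9% in WT, 9.53% and 10.1% in G2A). No test was made of the shares.

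**Figure D4:**
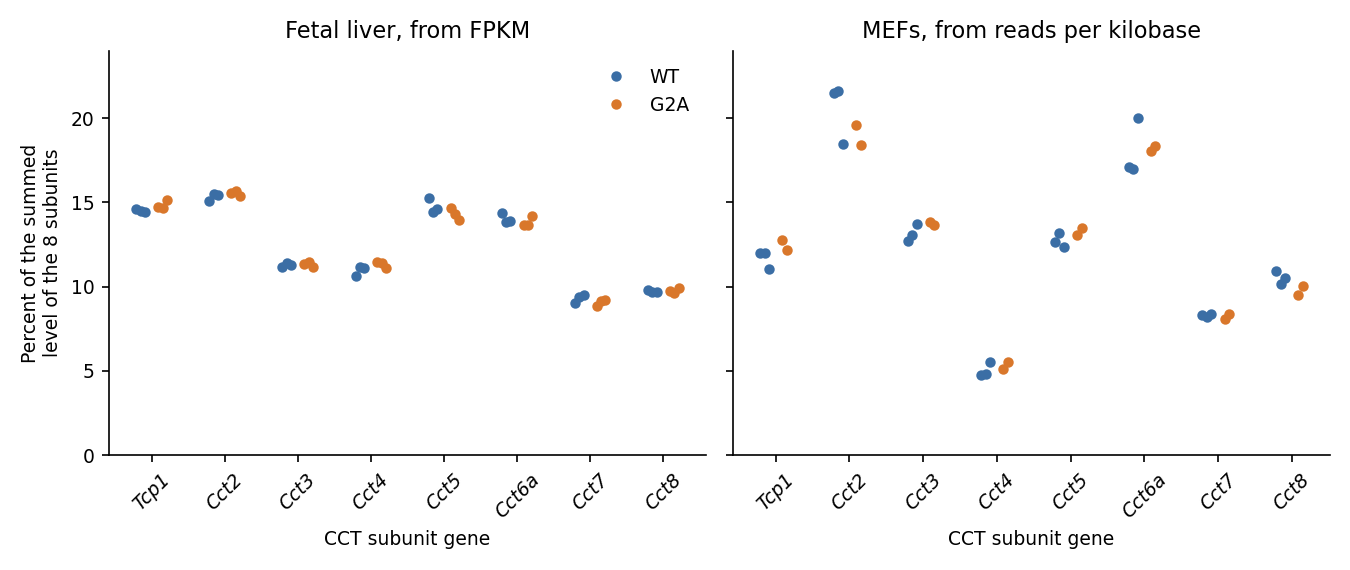
Share of each CCT subunit in the summed level of the 8, in percent, for each WT (blue) and G2A (orange) library, from FPKM in liver (left) and from reads per kilobase in MEFs (right). The liver shares of each gene lie close together, while Cct2 and Cct4 form the extremes in MEFs.

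Psmc1, which carries the allele, measured 178, 181 and 178 FPKM in livers of WT embryos, against 151, 145 and 161 in those of G2A embryos, a log2 difference of -0.23 (adjusted p 0.114, limma). In MEFs it was at 7393, 8589 and 6485 normalized reads in WT and at 10658 and 10913 in G2A, a log2 difference of 0.54 (adjusted p 0.282, limma). Its groups did not overlap in either tissue, with the same signs as the subunits. A changed codon leaves the mRNA in place, so these values do not check the labels.

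Among the partners of CCT, prefoldin lay on the same side as the subunits. In liver 5 of its 6 subunit mRNAs were below WT and 4 did so without overlap (Pfdn1, Pfdn2, Pfdn4 and Pfdn6). Pfdn4 was at 48.6 ± 2.71 FPKM in WT and 40.4 ± 0.832 FPKM in G2A (adjusted p 0.113, limma), and Pfdn6 at 136.8 ± 0.721 and 109.8 ± 12.7 FPKM (adjusted p 0.131, limma; SD, n = 3 each). In MEFs all 6 had a higher mean in G2A, 3 without overlap, led by Pfdn1 at 2762 ± 281 (n = 3) and 4144 ± 21.4 (n = 2) normalized reads (adjusted p 0.269, limma). By limma 0 of 6 passed in either tissue. At an unadjusted p of 0.05, 2 were lower in liver and 1 was higher in MEFs. At that p, 12.4% of all genes were lower in liver and 6.9% higher in MEFs. Without overlap, 15.7% of all genes were lower in liver and 18.9% higher in MEFs. The phosducin-like genes Pdcl and Pdcl3 lay between -0.19 and 0.06 on the log2 scale in both tissues, with adjusted p of at least 0.734 (limma), and Pdcl2 was at 0 in every library.

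The substrates did not move as a block. In liver, 9 of 11 tubulin mRNAs were below WT (6 without overlap, 6 at an unadjusted p of 0.05, 0 by adjusted p in limma). Among all genes tested there, 15.7% were lower without overlap and 12.4% lower at an unadjusted p of 0.05. Tuba1b, the main alpha-tubulin of dividing cells, was at 376 ± 10.4 FPKM in WT and 294 ± 15.6 FPKM in G2A (log2 difference -0.36, adjusted p 0.0902, limma), and Tubg1, the gamma-tubulin of the centrosome, differed by -0.29 (adjusted p 0.104, limma). The 4 actin and actin-related mRNAs were all slightly above WT in liver, by 0.02 to 0.11 on the log2 scale, with 0 at an unadjusted p of 0.05 (limma). Of 13 WD40 and other clients, 8 were below WT, 5 without overlap and at an unadjusted p of 0.05: the cell cycle regulators Cdc20 (-0.32, adjusted p 0.0950, limma), Plk1 (-0.36) and Ccne1 (-0.47), the telomerase factor Wrap53 (-0.28) and the mTOR partner Mlst8 (-0.23).

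In MEFs, 8 of 11 tubulins were above WT, with 2 at an unadjusted p of 0.05 and 0 by adjusted p (limma). Among all genes tested in MEFs, 6.9% were higher and 7.48% lower at an unadjusted p of 0.05. Tubg1 was at 2478 ± 93.1 (n = 3) and 3697 ± 86.3 (n = 2) normalized reads, and Tubb3, a tubulin typical of neurons, at 153 ± 68.0 and 530 ± 40.4 (n = 3 and 2), each with an adjusted p of 0.269 (limma). Of the actins 3 of 4 and of the WD40 and other clients 10 of 13 were above WT, with 0 and 1 higher and 0 and 1 lower at an unadjusted p of 0.05 and none by adjusted p (limma). Among those clients the mTOR partner Rptor was at 0.35 (adjusted p 0.330, limma) and the transcription factor Stat3 at -0.62 (adjusted p 0.327, limma) on the log2 scale.

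The tubulin folding cofactors, which assemble tubulin dimers after CCT, were all 6 below WT in liver (median -0.05), with Tbcc (-0.20, adjusted p 0.203, limma) the only one at an unadjusted p of 0.05 and 0 by adjusted p. In MEFs 2 of 6 were above WT, and Tbcd (0.47, adjusted p 0.269, limma) was the only one at an unadjusted p of 0.05. At that p, 12.4% of all genes were lower in liver and 6.9% higher in MEFs. The mRNAs of the mitochondrial chaperonin, Hspd1 and its cap Hspe1, differed by -0.27 (adjusted p 0.246, limma) and -0.23 (adjusted p 0.295, limma) in liver, with overlapping groups, and by 0.32 (adjusted p 0.544, limma) and 0.28 (adjusted p 0.573, limma) in MEFs. Of the chaperonin-like genes of Bardet-Biedl syndrome, Bbs12 was at -0.02 in liver (adjusted p 0.947, limma) and at 0.85 in MEFs (adjusted p 0.269, limma). These genes split in MEFs, with Mkks at 0.28 (adjusted p 0.455, limma) and Bbs10 at -0.29 (adjusted p 0.568, limma). In liver Mkks was at 0.04 and Bbs10 at -0.09, with overlapping groups. Cct6b, the testis relative of Cct6a, was under the filter in liver and at 6.20 ± 4.13 normalized reads in WT MEFs (n = 3), and Cct8l1 was under the filter in both. Hsf1, the main heat shock factor, differed by -0.11 in liver (adjusted p 0.351, limma) and by 0.37 in MEFs (adjusted p 0.388, limma), and Hsf2 by 0.06 (adjusted p 0.828, limma) and 0.02 (adjusted p 0.969, limma).

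Markers of cell types also differed between the livers. The 8 dividing cell markers were all below WT in G2A (median -0.28, 5 without overlap, 5 at an unadjusted p of 0.05, 0 by adjusted p in limma), and their summed level was 947 to 965 FPKM in WT and 717 to 936 FPKM in G2A. Ccnb1 (-0.39) and Cdk1 (-0.28, adjusted p 0.0902, limma), which drive mitosis, were among them. The 8 erythroid markers were also all below WT (median -0.47, 3 without overlap and at an unadjusted p of 0.05), with summed levels of 2176 to 3100 FPKM in WT and 1455 to 2818 FPKM in G2A. Of the 8 mesenchymal and fibroblast markers 7 were above WT (median 0.75, 4 without overlap and at an unadjusted p of 0.05), with summed levels of 572 to 792 FPKM in WT and 1038 to 2035 FPKM in G2A. By limma none of the erythroid or mesenchymal markers passed an adjusted p of 0.05, and no marker of these lists was at 0 in any liver. Among all genes tested in liver, 15.7% were lower and 11.8% higher without overlap. At an unadjusted p of 0.05, 12.4% were lower and 9.07% higher.

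Among the G2A livers, the order in these lists was that of the subunits. G2A 3, nearest to WT for CCT, was at -0.06 for the dividing cell markers, 0.02 for the erythroid markers and 0.30 for the mesenchymal markers, as mean log2 deviations from WT. G2A 2, furthest for CCT, was at -0.38, -0.84 and 1.12. The erythroid order did not hold, and the dividing cell order held only in part, among the WT livers. WT 2, highest of them for CCT, was at 0.02 for the dividing cell markers, -0.21 for the erythroid markers and -0.30 for the mesenchymal markers. WT 3 was at 0.19 for the erythroid markers. WT 1 and WT 3 were at -0.045 and -0.013 for CCT and at -0.004 and -0.018 for the dividing cell markers, and so changed places. The part of these cell types in the CCT values was not tested. Nor did every list share the G2A order in mean log2 deviation: the tubulins were at -0.32, -0.26 and -0.45, with G2A 3 lowest. By summed level, though, the tubulins had the order of the subunits, at 1841, 1838 and 2131 FPKM in G2A 1, G2A 2 and G2A 3. The hepatoblast markers, which define the liver's own epithelium, were split by sign (4 of 8 above WT, median -0.04), with summed levels of 10056 to 12415 FPKM in WT and 9740 to 13944 FPKM in G2A. Of them 2 were higher without overlap and at an unadjusted p of 0.05 (limma), Krt18 (0.63) and Dlk1 (0.25), and 0 were lower by either measure. Among all genes tested, 11.8% were higher without overlap and 9.07% at that p.

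**Figure D5:**
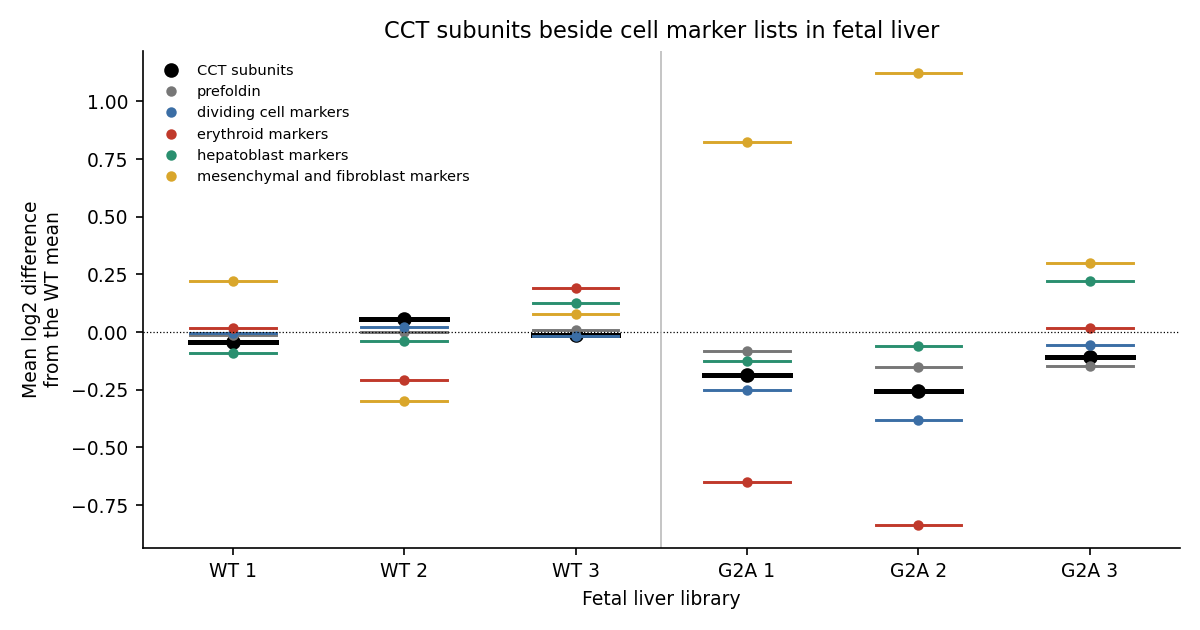
Mean log2 difference from the WT mean, for the CCT subunits (black) and 5 other gene lists, in each fetal liver library. CCT, dividing cell and erythroid values are lower in G2A 1 and G2A 2 than in G2A 3, and mesenchymal values are higher.

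Other marker lists in liver had 0 genes past an adjusted p of 0.05 (limma). The endothelial markers were all 6 above WT (median 0.25, 3 at an unadjusted p of 0.05), led by the VEGF receptor Kdr (0.46, adjusted p 0.0914, limma). Of the macrophage markers 2 of 6 were above WT, and of the megakaryocyte markers 3 of 4, with 1 and 0 at an unadjusted p of 0.05. At that p, 9.07% of all genes were higher in G2A livers and 12.4% lower.

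Genes beside the subunits share starts or sequence with them, and whether the counting used strand is not given in the sources used here. Fam173b starts 5 bases from Cct5 on the opposite strand. Its liver levels were 9.93, 11.7 and 12.0004 FPKM in WT, against 9.24, 9.58 and 9.89 in G2A (log2 difference -0.20, adjusted p 0.250, limma), and at 281, 313 and 286 normalized reads in WT and 385 and 398 in G2A MEFs (0.42, adjusted p 0.380, limma). Its groups were thus apart on the same sides as those of Cct5 in liver. Psph, 186 bases from Cct6a, was at -0.12 in liver (adjusted p 0.460, limma) and 0.12 in MEFs (adjusted p 0.653, limma), with overlapping groups. Mrpl18, a mitochondrial ribosome gene that overlaps the start of Tcp1 by 645 bases, was at -0.36 in liver (adjusted p 0.161, limma) and 0.16 in MEFs (adjusted p 0.674, limma), and Acat3, which overlaps the end of Tcp1 by 1235 bases, was at -0.15 (adjusted p 0.266, limma) and -0.02 (adjusted p 0.987, limma). The small nucleolar RNA Snora20, which lies within Tcp1 on the same strand, was listed at 595 FPKM in WT 1, at 600.1 FPKM in G2A 3 and at 0 in the other livers, and it was at 0 to 7.52 normalized reads in the MEFs. The small nucleolar RNAs SNORA29 within Tcp1 and SNORA22 within Cct6a were not analysed here. Usp16, which overlaps Cct8 by 193 bases, was at -0.19 (adjusted p 0.278, limma) in liver and -0.30 (adjusted p 0.544, limma) in MEFs, the latter on the other side of 0 from Cct8. The liver table also held 1700021C14Rik, 117 bases from Cct3 (-0.23, adjusted p 0.455, limma), and 1700040I03Rik, which overlaps Cct7 by 466 bases (-0.23, adjusted p 0.330, limma). Reads from overlapping genes cannot be told apart without strand. RefSeq names 16 pseudogene copies of the subunits, and 0 of them had values in either table, so reads shared with such copies are uncertain.

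Genes whose centred log2 profile over the 6 livers was most like the mean of the 8 subunits were Mtif2, Rpl7a, Bub1b, Rrp8 and Ap2a1, with root mean square differences of 0.0146 to 0.0171, beside 0.0143 to 0.0410 for the subunits themselves. Over the 5 MEF samples they were Ube2f, Mcph1, Prps1, Gfm1 and Rpl12, with 0.0132 to 0.0244, beside 0.0159 to 0.111 for the subunits. Each subunit is itself part of the mean, and the 5 genes per tissue were picked as the nearest of all genes tested. Both sets of distances are therefore small by construction and were not tested. The libraries behind these profiles share depth and normalization with all other genes.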

How the data were processed

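RNA-seq of mouse E12.5 fetal liver and immortalized MEFs was analysed from 2 deposited tables. Per the submitters' processing notes, TopHat2 2.1.1 and Cufflinks 2.2.1 were used and mm9 and mm10 are named, while the labels' protocols give reads trimmed to 50 bases and mapped to mm9. The sources used here do not give the gene annotation, the counting tool for MEFs or its use of strand. The deposited liver values were read as FPKM, from their totals (792987 to 840762 per library) and the tools named by the authors, so the liver depth is unknown. The deposited MEF values are a normalized signal, counts divided by a size factor (0.958 to 1.06). Dividing by what 1 read is worth in each column gave whole reads within 0.01 for 100% of values, 36415586 to 37695116 per library. One G2A MEF sample of the labels was not analysed here because no column could be matched to it.

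Log2(value + 1) was fitted per tissue with limma 3.58.1 (R 4.3.3, variance trend, Benjamini-Hochberg over all genes tested), over genes with FPKM of at least 1 in 3 libraries or a MEF value of at least 10 in 2. All 8 subunits passed both filters. The tissue difference was the difference of both fits. EdgeR 4.0.16 and DESeq2 1.42.0 were run on the recovered MEF counts as alternatives to the deposited values. The fits were tested on simulated data. Other alternatives were the pseudocount (0.1), the filter, scaling, variance trend, library weights, a replicate block and each library left out.

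Named were all 8 subunits, up to 2 genes with the smallest p from each of the lists of CCT partners and clients per tissue, genes starting within 1000 bases of a subunit or overlapping it, the 5 most alike profiles per tissue, and Psmc1. Others named from the lists were chosen after their values were seen. The members and lists were chosen with earlier results of these data known. Sequences are from RefSeq (GRCm38.p6) and were each found once in mm9.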

Additional observations from a re-analysis of the deposited data

How the results depend on the processing

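The 8 subunits stayed below WT in liver in all settings tried, and above WT in MEFs in all but those named here. In liver the median of the 8 was -0.063 with quantile normalization. Library weights gave 3376 genes higher, 2681 lower and 8 subunits called. Leaving out each liver in turn gave 1 to 1604 genes higher, 1 to 1548 lower, and 0 to 6 subunits called, the highest values without G2A 3. In MEFs, library weights gave 3149 genes higher, 2975 lower and 6 subunits called, DESeq2 gave 389 and 639 genes, and leaving out each sample in turn gave 0 to 1550 higher and 0 to 1525 lower, the highest without WT 3, and the log2 difference of Cct2 ran from -0.018 (without WT 3) to 0.40 (without WT 2). Between tissues, leaving out each library gave 2 to 3260 genes called and 0 to 1 subunits. The cause of these shifts was not tested.

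When sample numbers entered the fit as a replicate block, limma called 1 gene higher and 1 lower in liver and 0 subunits (adjusted p 0.172 to 0.329), and 4 of 8 subunits had an unadjusted p under 0.05, beside 6 without the block. That count was also 4 with median-ratio scaling and 4 without the variance trend. In MEFs the block keeps the samples numbered 1 and 2 only, and limma called 1915 genes higher and 1869 lower, 0 subunits, and Cct2 at -0.018. EdgeR with this block, chosen after seeing the data, gave 1812 higher and 1782 lower, with Cct2 at -0.017. Correlations of same-numbered deviations were 0.18, -0.10 and 0.10 in liver and 0.13 and -0.03 in MEFs, and not every liver correlated best with its own number. So few libraries can neither show nor exclude that equal numbers mark pairs, such as the littermate pairs described for the livers. The deviations of the 2 G2A MEF samples mirror each other by construction. The main fits did not treat the numbers as pairs, and the block fits give the counts with same-numbered samples paired.

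The liver table gives no depth, so counting error cannot be separated from other spread there. In MEFs, recovered reads differed between samples of a group by far more than counting error alone would give. The chi-square over its degrees of freedom was 55.9, 247 and 272 for the pairs of WT samples and 14.8 for the G2A pair. The larger values were those with WT 3. The source of that spread was not tested. In MEFs 2 G2A samples limit precision, and the 95% intervals of all subunits include 0.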

Other observations

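In the MEFs, the lists of cell markers had 0 genes past an adjusted p of 0.05 (limma). Of 8 mesenchymal and fibroblast markers 5 were below WT, 4 without overlap and at an unadjusted p of 0.05, among them the collagens Col1a1 (-1.04), Col1a2 (-1.40) and Col3a1 (-2.24) and the receptor Pdgfrb (-1.08) on the log2 scale. Among all genes tested in MEFs, 18% were lower without overlap and 7.48% lower at an unadjusted p of 0.05. Slc4a1, Epb4.2 and Gata1 of the erythroid markers and Tie1 of the endothelial markers were at 0 in every MEF sample. The 6 hepatoblast markers tested were split, with 3 above WT and 3 below (median -0.006). Only 1 was higher at an unadjusted p of 0.05 (limma), beside 6.9% of all genes. It was Krt18, a keratin of simple epithelia, at 9.50 ± 13.8 (n = 3) normalized reads in WT and 186 ± 24.9 (n = 2) in G2A (adjusted p 0.279, limma). Krt18 was at 0 in at least 1 sample. Alb (-1.49) and Ttr (-0.97) were below WT, with overlapping groups.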
